A study of Homo sapiens with 8 samples.

Results

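CBR1, CBR3, PTGR1, EPHX1, PIR, TRIM16L, OSGIN1, NQO2 and TRIM16 are 9 genes of reductive detoxification and the oxidative stress response. They are discussed as targets of the transcription factor NRF2 and were taken here by name, with earlier results of these data known. H3K27ac, the acetylation of histone H3 at lysine 27 that sits on active promoters and enhancers, was examined around them in A549 cells, an established human lung adenocarcinoma line. Every H3K27ac region that overlapped one of the genes or the 20 kb on either side of it was kept, which gave 27 of the 49186 regions in the data. The 6 libraries were 3 from cells given control siRNA and 3 from cells given NRF2 siRNA, harvested 48 hours after transfection. Both groups were the same parental line in the same medium, with no further allele or agent. NRF2 siRNA 28 was used in replicate 1, and NRF2 siRNA 30 in replicates 2 and 3. The line carries mutant KEAP1, so the control cells already hold active NRF2, and all values describe a loss from that state in 1 cell line.

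NRF2 pairs with a small MAF protein, binds the antioxidant response element and recruits coactivators, among them histone acetyltransferases. KEAP1 normally holds NRF2 low by marking it for degradation. CBR1 and CBR3 are NADPH-dependent carbonyl reductases, PTGR1 reduces the double bond of prostaglandin and leukotriene metabolites, NQO2 is a quinone reductase and EPHX1 is the microsomal epoxide hydrolase. PIR encodes pirin, an iron-binding nuclear protein, OSGIN1 is an oxidative stress-induced growth inhibitor, TRIM16 is a tripartite motif protein and TRIM16L is a partial copy of it on the same chromosome.

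The element was searched for in the 27 regions, on both strands, in the 4 readings ATGACNNNGC, ATGAGNNNGC, GTGACNNNGC and GTGAGNNNGC, where N is any base. It occurred 57 times and in regions of 8 of the 9 genes. The exception was CBR1. The match closest to a transcript start of each gene, outside any exon, is printed below for 6 genes whose promoter region held one, because they show what the element looks like in the regions described next. Each run is 50 bases of GRCh37 (hg19) on the strand of the element, 5′ to 3′, with the 10 bases of the element in capitals.

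NQO2, chr6:3000041-3000090, plus strand: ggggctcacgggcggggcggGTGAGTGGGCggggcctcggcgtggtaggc
EPHX1, chr1:226008302-226008351, minus strand: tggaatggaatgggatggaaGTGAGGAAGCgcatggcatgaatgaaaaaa
PIR, chrX:15509162-15509211, minus strand: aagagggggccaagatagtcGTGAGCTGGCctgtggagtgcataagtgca
OSGIN1, chr16:83986726-83986775, minus strand: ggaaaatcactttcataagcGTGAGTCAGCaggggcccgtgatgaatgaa
TRIM16L, chr17:18624716-18624765, plus strand: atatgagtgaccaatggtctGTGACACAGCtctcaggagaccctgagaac
TRIM16, chr17:15546304-15546353, plus strand: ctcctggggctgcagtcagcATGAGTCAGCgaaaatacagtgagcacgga

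The OSGIN1 and TRIM16 matches also contain TGAGTCA, the letters bound by AP-1 factors such as FOS and JUN, within the element. The OSGIN1 match lay 93 bases from a start, the NQO2 match 62 bases and the TRIM16 match 50 bases. The EPHX1 match lay inside the gene, 10500 bases past the canonical start, and the PIR match 2269 bases past it. The NQO2, OSGIN1, TRIM16L and TRIM16 matches lay under a peak in all 3 control libraries, the EPHX1 match in 2 of them and the PIR match in 1. The element is short and was common: 59.3% of the 27 regions held at least 1 match, beside 55.9% of all regions and 61.6% of regions at the start of a coding gene. Per kb there were 0.637 matches in the 27 regions, 0.439 in all regions and 0.452 at coding starts. In the 300 bases around each RefSeq start (GRCh38.p14), 3 of the 9 genes held the element (NQO2, OSGIN1 and PIR), which is 33.3%, beside 14.7% of 35116 promoters.

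The files list peaks, not reads, so each region is described by a percentile. Within the list of 1 library, peaks were ranked by their fold enrichment over background, and a region took the rank of its strongest peak as a percent of the list. The highest peak of a list has the percentile 100, and a region without a peak was given 0. A difference in percentile is therefore a change of place within a library's own list. Depth cannot be read from the lists, which hold 23885 to 41571 peaks, and no interval based on counts is given. Per the study's reporting, the replicate 1 libraries of both groups had fewer mapped reads than the others, and NRF2 siRNA replicate 1 had no fewer than its control. The shortest list was that of NRF2 siRNA replicate 1, in which several of the genes below also had their lowest percentile, so the results are also given without it. The labelled cell type was checked at the promoters of 11 lung epithelial markers: 9 had a region, and 7, among them KRT8, KRT18, CDH1 and EPCAM, were called in all 6 libraries. NKX2-1 and SFTPB had none and SFTPC was called in 1 library. PTPRC, CD3E and PECAM1 had none, while COL1A1 and ALB were called in 2 libraries and COL3A1 in 4. No RNA was measured here, so the knockdown itself was not checked, and the promoter of NFE2L2, the NRF2 gene, was called in all 6 libraries.

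For a test, each region with a peak in 3 or more of the 6 libraries was given a rank normal score, the normal quantile that matches its rank in a library. A change is the mean score with NRF2 siRNA minus that with control siRNA. The scores were compared with limma over all 32673 such regions in the genome, adjusted by the Benjamini-Hochberg method, and an adjusted p under 0.05 was taken as a call. Of the 27 regions, 13 lay within 1 kb of an annotated transcript start of their gene and are called promoter regions, and 14 are called distal. Tested were 9 promoter and 8 distal regions, and the other 10 had peaks in too few libraries. All 9 tested promoter regions had a peak in every library.

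H3K27ac was lower with NRF2 siRNA at promoters of 7 of the 9 genes, while no region of any gene was called higher. The regions called lower were 7 of the 17 tested, 1 each at CBR1, PTGR1, NQO2, EPHX1, PIR, OSGIN1 and TRIM16L, beside a background of 3.39% of all tested regions and 1.68% of tested promoter regions of coding genes. The background for higher calls was 2.01% and 0.569%. None of the 8 tested distal regions was called, where 4.6% of tested regions away from any start were called lower and 3.02% higher. A count of 0 among 8 says little beside such shares. The 8 also include the starts of SETD4 and SERPINB6, while this background holds no start. With the replicate number as a block, limma called 8 of the 17 lower, beside 6.62% of all tested regions, and 1 higher, beside 5.72%. The percentiles of the groups did not overlap, and were lower with NRF2 siRNA, in 9 of the 27 regions, beside 8.5% of all regions, and they did so in the higher direction in 0, beside 4.91%. Of the 9 regions, 8 were promoter regions, and the shares over coding promoter regions were 9.33% lower and 3.08% higher. The count moved with the libraries in the fit. The share of all tested regions called lower moved too, and stands beside each count. Without NRF2 siRNA replicate 1 there were 8 lower calls (5.25% of all), and with replicates 2 and 3 alone 9 (6.04%). Both counts include a distal PTGR1 region with peaks in control libraries alone, which could only be lower. The 8 lower calls with the block and the 9 regions without overlap include it too. Without control siRNA replicate 1 there were 3 (CBR1, PIR and PTGR1), beside 1.75% of all, and without control siRNA replicate 3 only PTGR1, beside 0.309%. Without NRF2 siRNA replicate 2 or replicate 3 there were 2 (PTGR1 and PIR), beside 0.373% and 1.38%. Without control siRNA replicate 2 limma called 0 of the 17, and also 0 regions in the genome. In that fit 9 of the 17 were lower at an unadjusted p under 0.05, beside 6033 of all 32673 in either direction.

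**Figure D1:**
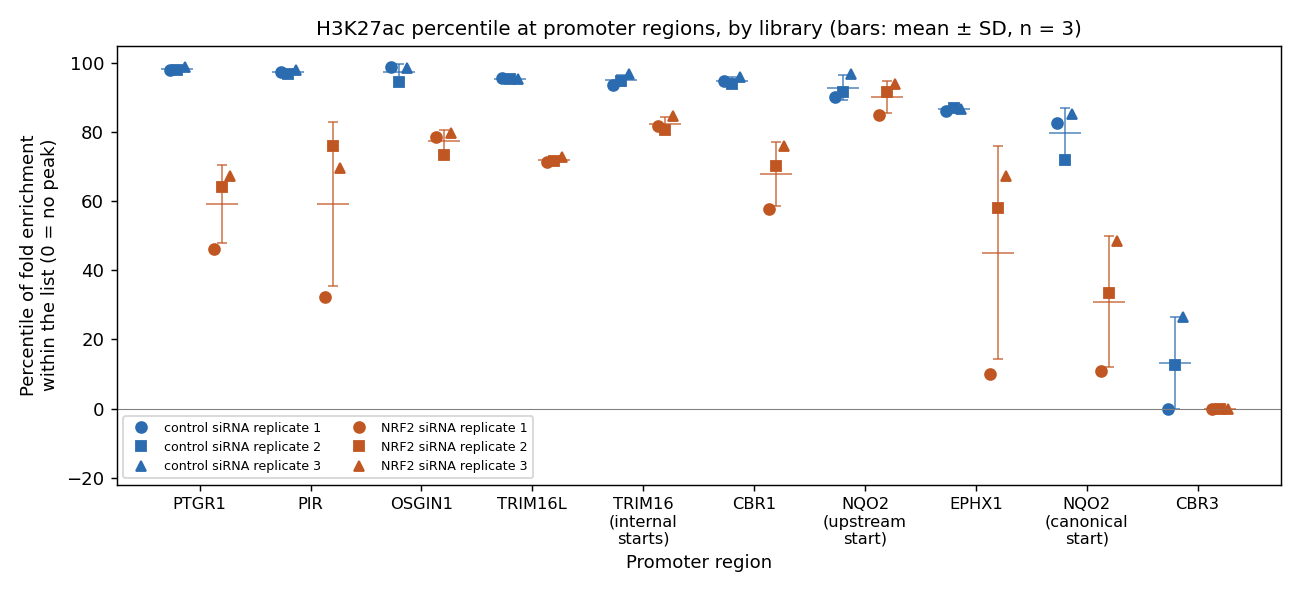
Within-list percentile of fold enrichment (0 means no peak) at the promoter regions of the 9 genes in 3 control siRNA (blue) and 3 NRF2 siRNA (orange) libraries, with one symbol per replicate number and bars for mean ± SD. The groups do not overlap at PTGR1, PIR, OSGIN1, TRIM16L, TRIM16, CBR1, EPHX1 and the canonical NQO2 start, and they overlap at the upstream NQO2 start and at CBR3.

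The carbonyl reductase genes lie close together on chromosome 21 and differed in their level of acetylation. The CBR1 promoter region (chr21:37441226-37443556) covered 5 annotated starts, exons and UTR of the gene. Its percentiles were 94.9, 93.9 and 96.1 in control siRNA replicates 1 to 3, and 57.8, 70.2 and 75.9 in NRF2 siRNA replicates 1 to 3. Every control library lay above every NRF2 siRNA library. The score fell by 1.08 (SE 0.190, n = 3 per group; limma adjusted p = 0.0182), with changes of -1.14, -1.01 and -1.08 in the 3 replicate pairs. The CBR1 regions held no match to the element.

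The nearest other region, 7607 bases before it (chr21:37431535-37433618), holds the start of SETD4, a lysine methyltransferase gene. Its percentiles were 80.2, 72.4 and 89.5 with control siRNA and 55.2, 76.1 and 80.9 with NRF2 siRNA, and the groups overlapped. Its score change was -0.23 (SE 0.218; limma adjusted p = 0.585). Within each library, the CBR1 promoter stood 14.7, 21.5 and 6.63 percentile points above the SETD4 promoter with control siRNA, and 2.60, -5.91 and -5.03 points with NRF2 siRNA. The difference between the groups was -17.0 points (exact permutation test, two-sided, p = 0.1, the smallest that 3 against 3 libraries allow). This pair of regions was chosen after its values were seen.

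CBR3 had few and weak peaks. Its promoter region (chr21:37506068-37508314), over the only annotated start, had percentiles of 0, 12.8 and 26.6 with control siRNA and 0 in every NRF2 siRNA library. It had peaks in too few libraries for the test. The 2 other CBR3 regions lie at starts of the neighbour DOP1B, and were called in 1 library (28.9, control siRNA replicate 3) and in 2 libraries (28.0 in control siRNA replicate 3 and 16.3 in NRF2 siRNA replicate 3).

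PTGR1 showed the largest fall in score among the tested regions of the 9 genes, while in percentile points EPHX1 and the canonical NQO2 start fell further. Its promoter region (chr9:114359765-114370294) spans 7 annotated starts and reaches upstream into LRRC37A5P. The percentiles were 98.0, 98.0 and 98.9 with control siRNA, and 46.2, 64.3 and 67.2 with NRF2 siRNA. The control values lay close together at the top of the list, and the NRF2 siRNA values were spread and all below them. The score fell by 1.78 (SE 0.190; limma adjusted p = 0.00628), which ranked 33 among the falls of the 11771 tested coding promoter regions. The peaks were also shorter: 9.70, 9.25 and 10.1 kb of the region lay under a peak with control siRNA and 2.43, 6.91 and 8.71 kb with NRF2 siRNA. Of its 7 element matches, 6 lay under a peak in every control library. Of these 6, NRF2 siRNA replicate 1 covered 0, replicate 2 covered 3 and replicate 3 covered 6.

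A distal PTGR1 region (chr9:114375064-114376316), 12891 bases from the nearest start of the gene, had weaker peaks. Its percentiles were 37.2, 19.8 and 37.2 with control siRNA, and no NRF2 siRNA library had a peak there. It entered the test through its control peaks alone and so had to differ. Its score change was -1.02 (SE 0.337; limma adjusted p = 0.112), which passed the threshold with the replicate number as a block (adjusted p = 0.0171). It was the only one of the 27 regions called in every control library and no NRF2 siRNA library, a pattern found in 2.27% of all regions. The reverse pattern occurred in 0 of the 27 and in 0.83% of all regions. The remaining PTGR1 region, inside the gene, was called in control siRNA replicate 1 alone.

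NQO2 had both a start that changed and a start that was not shown to. The gene has annotated starts in 2 regions 7801 bases apart. Both also overlap exons of NQO2-AS1, and the upstream one exons of LINC01011. At the upstream starts (chr6:2987780-2991051) the percentiles were 90.1, 91.8 and 96.9 with control siRNA, and 85.0, 91.6 and 93.9 with NRF2 siRNA. The groups overlapped, and the score change was -0.15 (SE 0.206; limma adjusted p = 0.731). At the canonical start (chr6:2998853-3002706, 6 annotated starts) they were 82.6, 71.8 and 85.3 with control siRNA, and 10.9, 33.4 and 48.6 with NRF2 siRNA. Here the groups were apart and the score fell by 1.11 (SE 0.218; limma adjusted p = 0.0254). The printed NQO2 element lies in this region and was under a peak in all 3 control libraries, and with NRF2 siRNA in replicates 2 and 3.

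Set against each other within each library, the canonical start stood -7.47, -20.0 and -11.6 percentile points from the upstream one with control siRNA, and -74.1, -58.2 and -45.3 points with NRF2 siRNA. The groups differed by -46.2 points (exact permutation p = 0.1, the smallest possible), in a comparison chosen after the values were seen. The 5 distal NQO2 regions had score changes between -0.37 and 1.09, and limma called none of them. The strongest, beyond the 3′ end of the gene (chr6:3022481-3025610), had percentiles of 85.8, 85.0 and 89.2 with control siRNA and 80.5, 87.0 and 80.6 with NRF2 siRNA, with a change of -0.11 (SE 0.206; adjusted p = 0.798). The only positive change among them was at a region 9843 bases before the first start (chr6:2976385-2978378), with percentiles of 0, 40.2 and 22.6 with control siRNA and 31.6, 71.4 and 60.9 with NRF2 siRNA. Its groups overlapped, and the change of 1.09 (SE 0.281; limma adjusted p = 0.0583) passed the threshold as higher with the replicate block (adjusted p = 0.0139).

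**Figure D2:**
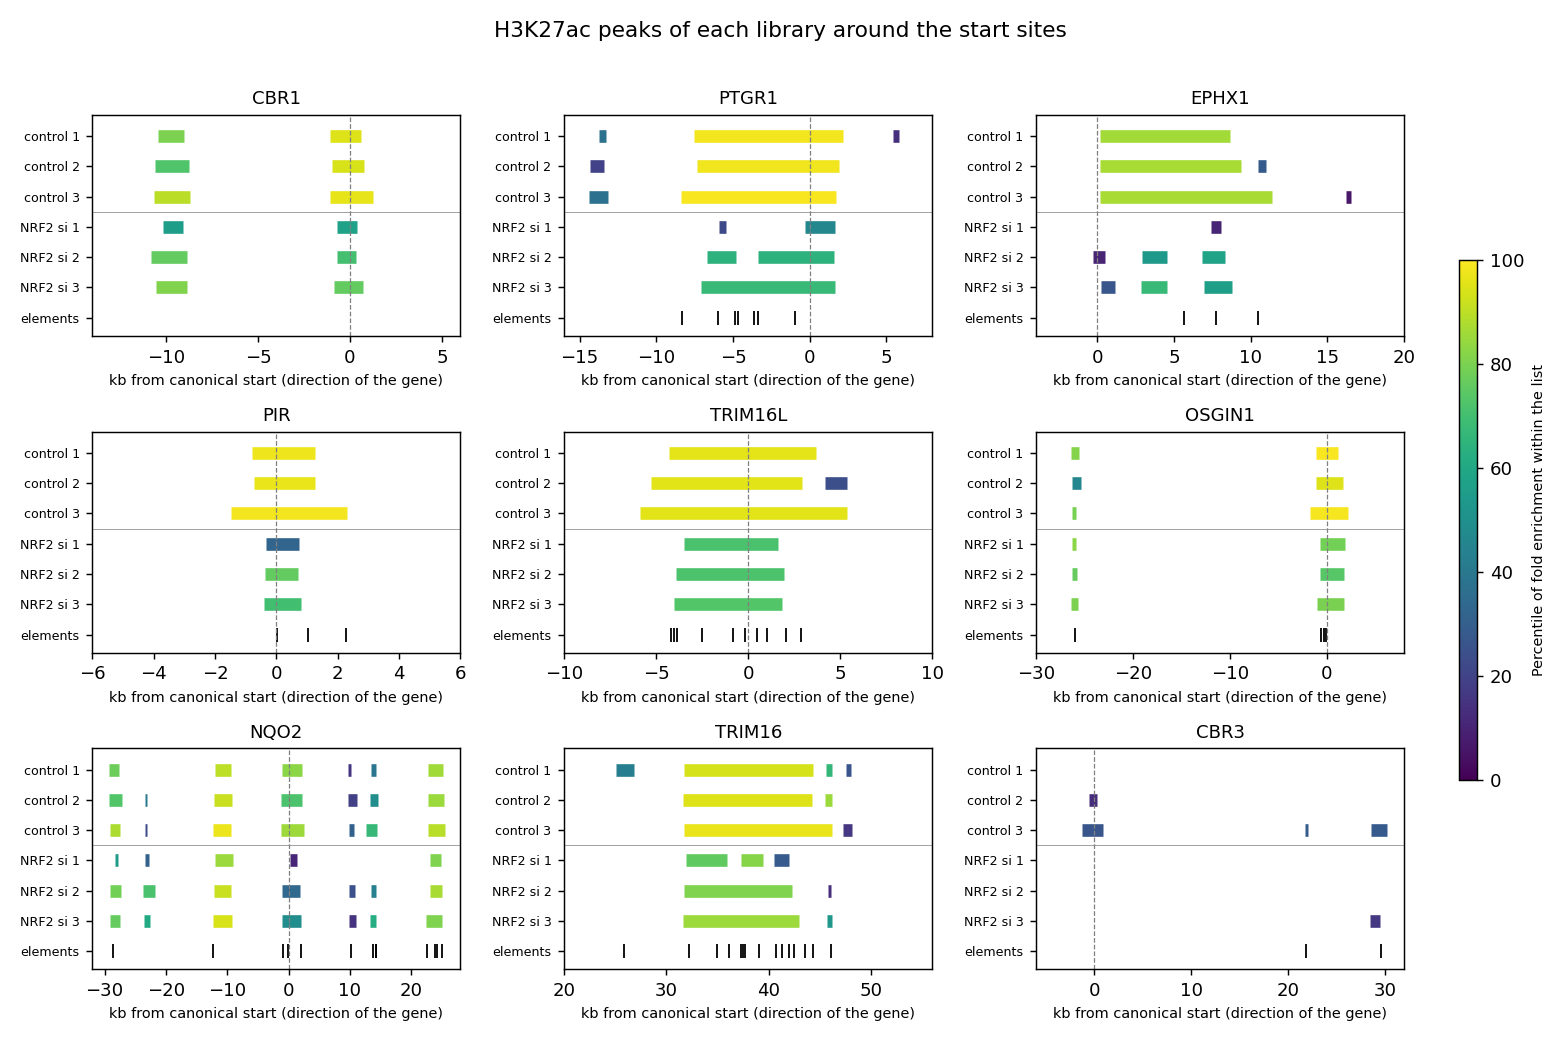
Peaks of the 3 control siRNA and 3 NRF2 siRNA libraries around each gene, placed by distance in kb from its canonical start in the direction of the gene and coloured by within-list percentile. For TRIM16L the start is that of the record annotated as a pseudogene. Ticks in the lowest row are matches to the antioxidant response element. Long peaks of the controls at PTGR1 and EPHX1 are shorter or broken up with NRF2 siRNA, and CBR1 has no tick.

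At EPHX1 a long peak was broken up. The promoter region (chr1:225997563-226009207) covers 3 annotated starts. Its percentiles were 86.1, 87.1 and 86.8 with control siRNA, and 10.1, 58.0 and 67.4 with NRF2 siRNA. The control values were nearly equal, and the NRF2 siRNA values spread widely below them (86.6 ± 0.507 against 45.2 ± 30.7, SD, n = 3 each). The score fell by 0.98 (SE 0.211; limma adjusted p = 0.0325), and by 0.85 without NRF2 siRNA replicate 1, the lowest library (adjusted p = 0.0429). In the control libraries the peak began 174 to 200 bases past the canonical start and ran for most of the region, with 8.50, 9.69 and 11.2 kb under peaks. With NRF2 siRNA 0.640, 3.83 and 4.50 kb remained, in 1, 3 and 3 separate peaks. The NRF2 siRNA percentiles do not describe the start itself, since the strongest peak lay 7413 to 8052 bases past it in replicate 1, 6840 to 8304 in replicate 2 and 2821 to 4559 in replicate 3. The peak nearest the start had a percentile of 9.82 in replicate 2 and 26.8 in replicate 3, and replicate 1 had none there. The printed EPHX1 element was under a peak in control siRNA replicates 2 and 3 and in no NRF2 siRNA library. The 2 distal EPHX1 regions were each called in 1 control library (percentiles 6.13 and 8.17).

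PIR had 1 region in its whole window, at the start of the gene (chrX:15509156-15512939), over exons of PIR. The percentiles were 97.5, 96.8 and 98.1 with control siRNA, and 32.2, 76.0 and 69.7 with NRF2 siRNA. The groups were far apart, and the score fell by 1.54 (SE 0.216; limma adjusted p = 0.00965). The changes were -1.88, -1.15 and -1.61 in the 3 replicate pairs, and the fall ranked 55 among the 11771 tested coding promoter regions. The printed PIR element was under a peak in control siRNA replicate 3 alone. An element match 1044 bases past the canonical start was under a peak in all 3 control libraries and in no NRF2 siRNA library, while one 30 bases past that start was under a peak in all 6.

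OSGIN1 had its fall at the promoter and none was detected at its distal region. The promoter region (chr16:83985140-83989085) holds 3 annotated starts. Its percentiles were 99.0, 94.7 and 98.6 with control siRNA, and 78.6, 73.5 and 79.9 with NRF2 siRNA. The groups did not overlap, and the score fell by 1.23 (SE 0.258; limma adjusted p = 0.0308). All 3 element matches in the region, among them the printed one, lay under a peak in all 6 libraries. The distal region (chr16:83960447-83961435), over an exon of MLYCD, had percentiles of 81.6, 46.1 and 79.3 with control siRNA and 82.6, 76.2 and 80.4 with NRF2 siRNA. Its change was 0.35 (SE 0.308; adjusted p = 0.557), and control siRNA replicate 2 was the low library.

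TRIM16L and TRIM16 each had a long acetylated region inside the annotated gene. TRIM16L is annotated both as a long noncoding RNA and as a transcribed pseudogene. The region over the pseudogene start and 7 further starts (chr17:18619655-18630940) had percentiles of 95.8, 95.4 and 95.3 with control siRNA, and 71.3, 71.6 and 72.7 with NRF2 siRNA. Both groups were tight, and the score fell by 1.05 (SE 0.208; limma adjusted p = 0.0262). The region at the far upstream starts of the RNA record (chr17:18601169-18601506) was called in control siRNA replicate 3 alone, with a percentile of 34.4.

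The TRIM16 region over 4 internal starts (chr17:15541393-15556026) had percentiles of 93.6, 94.7 and 96.7 with control siRNA, and 81.8, 80.7 and 84.8 with NRF2 siRNA. It also holds a start of another gene annotated as coding. The groups did not overlap, but the score change of -0.68 (SE 0.198) missed the threshold (limma adjusted p = 0.083; with the replicate block 0.0548). It passed in 4 alternatives: with replicates 2 and 3 alone (adjusted p = 0.0455), a length-weighted mean fold (0.0437), a trended and robust fit (0.0209) and the block with equal list lengths (0.0359). The canonical start, at least 31599 bases upstream of these peaks, was called in 2 libraries, with 45.0 in control siRNA replicate 3 and 16.8 in NRF2 siRNA replicate 3. The 2 other TRIM16 regions were called in 1 and 2 control libraries and in no NRF2 siRNA library. The copies are alike in sequence: 30.8% of the read-length words of the TRIM16L region occur in the TRIM16 window, and 23% of those of the TRIM16 region in the TRIM16L window. Reads from such stretches cannot be assigned to 1 copy, and the authors dropped reads of low mapping quality, so the values of both genes are uncertain to that extent.

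**Figure D3:**
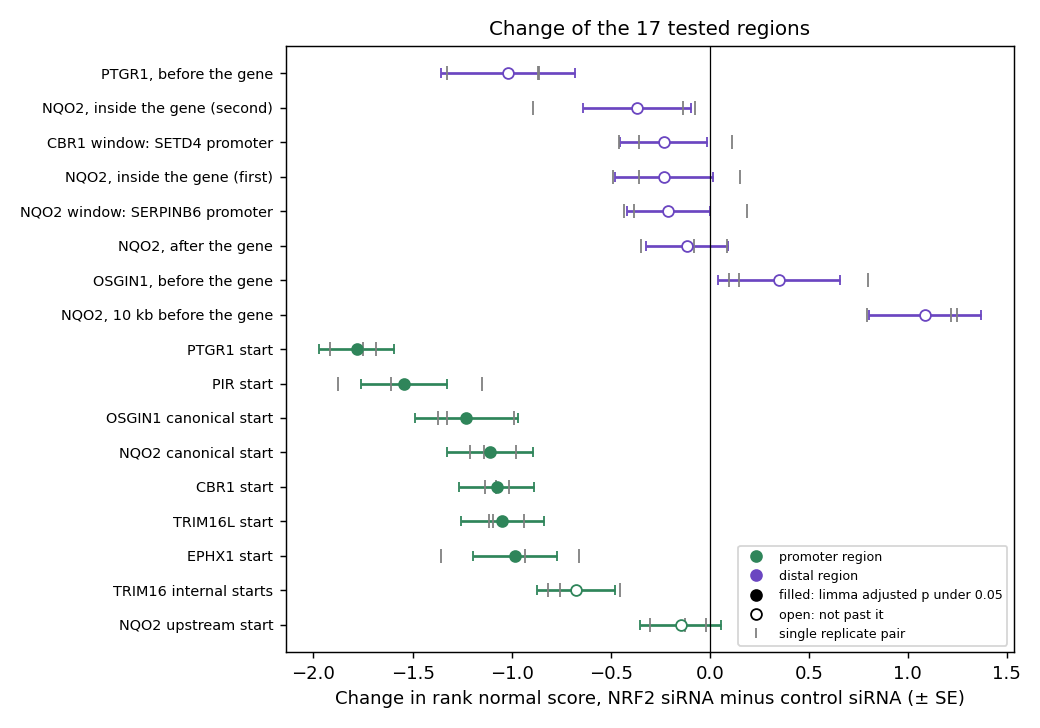
Change in rank normal score, NRF2 siRNA minus control siRNA, at the 17 tested regions (circles ± SE, n = 3 per group), with ticks for the 3 replicate pairs. Filled circles passed the limma threshold: these are 7 promoter regions (green) with changes between -1.78 and -0.98, and no distal region (purple) is filled.

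Promoter and distal regions were then compared as classes. The distal class includes regions at starts of the neighbours SETD4, SERPINB6 and DOP1B. The median percentile over the 13 promoter regions was 90.1, 91.8 and 95.3 in the control libraries, and 32.2, 64.3 and 67.4 in the NRF2 siRNA libraries. The class means were 92.4 ± 2.69 and 54.6 ± 19.5 (SD, n = 3 each), a difference of -37.8 points (exact permutation p = 0.1). The median over the 14 distal regions was 26.4, 19.5 and 29.6 with control siRNA, and 0, 12.3 and 15.4 with NRF2 siRNA, a difference of -15.9 points (exact permutation p = 0.1). Both classes were lower in all 3 replicate pairs. Some regions of each class had peaks in control libraries alone, so they could only be lower with NRF2 siRNA. No region of either class had peaks with NRF2 siRNA alone. The promoter median stood above the distal one by 67.3 ± 4.49 points with control siRNA and by 45.4 ± 11.4 with NRF2 siRNA, which is a difference of -21.9 (exact permutation p = 0.1, or 0.25 within pairs, each the smallest possible). A region without a peak counts as 0, so the distal median had far less room to fall than the promoter one. Part of this difference can come from that floor. Without NRF2 siRNA replicate 1 the promoter difference was -26.6 and the distal one -11.3. The distal difference changed sign, to 10.2 points (exact permutation p = 0.5), when every list was cut to the length of the shortest. This left 11 promoter and 9 distal regions. The distal difference was -5.40 over regions called in all 6 libraries (exact permutation p = 0.4). It was -7.24 with windows of 50 kb (exact permutation p = 0.7) and -9.25 at a q-value of at most 1e-05 (exact permutation p = 0.7). It was -16.4 with windows of 5 kb (exact permutation p = 0.2). When a start had to lie inside the region it was -19.7 (exact permutation p = 0.1). The distal fall thus depended on which regions were counted. Over all 13779 coding promoter regions the same median differed by -7.86 points (exact permutation p = 0.6), and over 31769 regions away from any start by -0.46 (p = 1). The median of the latter was 0 in replicate 1 of both groups, so it too lay near the floor.

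**Figure D4:**
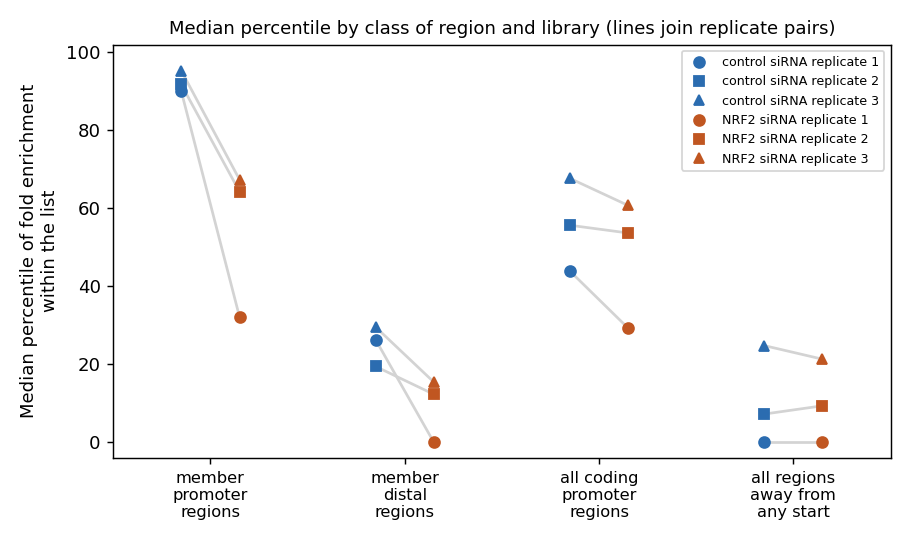
Median within-list percentile in each library over the 13 promoter and 14 distal regions of the 9 genes, over all 13779 coding promoter regions and over 31769 regions away from any start, with lines joining replicate pairs. The promoter medians of the 9 genes lie between 90.1 and 95.3 in the controls and between 32.2 and 67.4 with NRF2 siRNA, and all coding promoters overlap between the groups.

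In scores, the median change was -1.08 over the 9 tested promoter regions, beside -0.05 over 11771 coding promoter regions, and -0.22 over the 8 tested distal regions, beside 0.09 over 18093 tested regions away from any start. The length under peaks gave a measure that needs no merging. Peaks covered 8.55%, 9.12% and 11.2% of the 9 windows with control siRNA and 3.96%, 6.51% and 7.41% with NRF2 siRNA. The means were 9.61% ± 1.37 and 5.96% ± 1.79 (SD, n = 3; exact permutation p = 0.1), and the groups did not overlap. Covered length over the genome was also smaller in each pair, but its groups overlapped, at 64.7, 85.0 and 113 Mb with control siRNA and 46.3, 84.8 and 106 Mb with NRF2 siRNA (exact permutation p = 0.7). In the gene windows it went from 10.7 to 6.02 kb on average at PTGR1, from 10.1 to 2.99 kb at EPHX1 and from 3.75 to 3.17 kb at OSGIN1.

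The genes can be ordered by the strongest promoter region of each in the control libraries: PTGR1, PIR, OSGIN1, TRIM16L, TRIM16, CBR1, NQO2, EPHX1 and CBR3. Neighbours from PTGR1 down to NQO2 had overlapping ranges. NQO2 and EPHX1 did not overlap, nor did EPHX1 and CBR3. Of the element matches, 46 of 57 were under a peak in every control library and 21 in every NRF2 siRNA library. Peaks covered 82.5%, 86% and 94.7% of them with control siRNA, beside 50.1%, 63.5% and 84.3% of all 61146 matches in the data. With NRF2 siRNA they covered 36.8%, 56.1% and 71.9%, beside 34.4%, 60.3% and 73.7%. The element matches near the 9 genes were thus covered more than the rest in each control library, and in 1 of the 3 NRF2 siRNA libraries. Matches in sequence shared by TRIM16 and TRIM16L count in both copies here. AP-1 letters occurred within 8 of the 57 matches (14%), beside 8.21% of all.

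A further 24 genes were picked by name as genes of the NRF2 pathway. This was done with earlier results of these data known, so the list is not independent of the data. The 24 genes include antioxidant and NADPH-supplying genes, and also others such as ABCC2, FTH1, MAFG and SQSTM1. All had a tested promoter region, and limma called 10 lower and 0 higher, beside 1.68% and 0.569% of tested coding promoter regions. With the replicate block 15 were lower, in a fit that called 6.62% of all tested regions lower, beside 3.39% without the block. Their median score change was -0.81, and 23 of the 24 were below 0, beside 48.5% of all tested regions. The 4 with the largest changes were TXN, thioredoxin (-1.62, adjusted p = 0.00677), MAFG, a small MAF partner of NRF2 (-1.38, adjusted p = 0.0134), GCLC, the catalytic subunit of glutathione synthesis (-1.37, adjusted p = 0.0134), and TALDO1, transaldolase of the pentose phosphate pathway (-1.37, adjusted p = 0.0121). Of 11 relatives of the 9 genes by family, 8 had a tested promoter region. Of these limma called 0, beside 1.68% lower and 0.569% higher of tested coding promoter regions, so a count of 0 among 8 says little. With the replicate block NQO1 alone, which is also one of the 24 genes above, was called, as lower, beside 6.62% of all tested regions. Their median change was -0.01. CBR4 and PTGR2, relatives of the carbonyl and prostaglandin reductases, had changes of 0.24 (adjusted p = 0.501) and -0.19 (adjusted p = 0.642). EPHX3, EPHX4 and TRIM62 had no promoter region.

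The effects of the NRF2 siRNAs could be set side by side only across replicates, since siRNA 28 was used in replicate 1 alone, and siRNA and replicate cannot be told apart. A limma term for the difference between the effects passed the threshold in 0 of the 17 regions and in 0 of all 32673, on 2 residual degrees of freedom, so the adjusted count says nothing of these regions in particular. An unadjusted p under 0.05 was found in 0 of the 17 and in 3871 of all. Across the 6 libraries, the coding promoter regions with the score pattern most like the mean of the 9 tested promoter regions were at MAPRE3 (Pearson's r = 0.998), ACACA and TADA2A (r = 0.998) and SH3BP4 (r = 0.997). Of 11761 regions compared, 172 had r above 0.95. These points share the contrast between the groups and are given as a description.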

How the data were processed

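H3K27ac ChIP-seq peak lists of 3 control siRNA and 3 NRF2 siRNA libraries were used. The 2 input samples were not analysed here. Single-end reads had been mapped by the authors on hg19 using Bowtie2 (2.2.6). They dropped alignments of mapping quality under 20, called broad peaks in each library on its own with MACS2 (2.1.0.20151222) and removed blacklisted peaks. The deposited lists give, for each peak, an integer score, the ratio of a peak to background (fold enrichment), and −log10 p and q values. Which background library was used is not given in the sources used here. Read depth cannot be recovered from the lists, so the 3 libraries a group limit the precision. The study describes 3 independent experiments in 1 line, and p-values measure the spread between these libraries.

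Peaks overlapping by at least 1 bp were merged over the 6 libraries. Gene bodies and starts came from GENCODE lifted to GRCh37. Only the fold was used, to rank peaks within a list. Scores were computed as the normal quantile of (rank - 0.5) over the number of regions, with uncalled regions at the tied lowest rank, and fitted with limma (3.58.1, R 4.3.3). This step was tested on simulated scores. Single values per library were compared by exact permutation (Python 3.11.15, scipy 1.17.1), two-sided. Same-numbered libraries deviated together (r = 0.398, 0.199 and 0.363). The numbers in the sample titles were taken as pairs, which was not tested, and a replicate block was an alternative. Named were all promoter regions, the strongest distal region of each gene and each called region; the SERPINB6, DOP1B and other distal regions are given by count or range, and the region before NQO2 was singled out after its values were seen. The genes and gene lists were chosen with earlier results of these data known. Alternatives were equal list lengths, a q-value of at most 1e-05, other filters, windows of 5 and 50 kb, merging within 500 bp, a mean fold, a trended fit, and each library left out. The sequence of 1 element window, at PTGR1, is not reported here.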

Additional observations from a re-analysis of the deposited data

How the results depend on the processing

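Of 204 checks of single regions, 167 gave the direction and the call reported, with regions not called counted among them. The 29 checks that lost a call all fell on the 7 regions called lower. Over 17 settings, the main one included, the call held in 16 at PTGR1, 15 at PIR and 13 at CBR1. It held in 12 at TRIM16L and at OSGIN1, and in 11 at EPHX1 and at the canonical NQO2 start. The score change of the NQO2 region beyond the gene ranged from -0.18 to 0.011 when 1 library was left out, and was above 0 without NRF2 siRNA replicate 3 (limma adjusted p = 0.988). The count of lower calls was 5 to 9 under the alternatives other than leaving out 1 library, beside 2.19% to 8.81% of all tested regions. It ranged from 0 to 8 when 1 library was left out, beside 0% to 5.25%. The count of higher calls went from 0 to 1, the region before NQO2, with equal list lengths, with the replicate block, with both together and with the trended fit. In that order, these settings called 1185 of 23179, 1868 of 32673, 2151 of 23179 and 1175 of 32673 tested regions higher. The replicate block gave 8 lower calls in place of 7, adding the distal PTGR1 region, and changed no other call than these. The distal class difference turned to 10.2 points with equal list lengths. Regions called in every control library and no NRF2 siRNA library numbered 0 with equal list lengths, 0 with a window of 5 kb, 2 with replicates 2 and 3 alone, and 1 to 2 when 1 library was left out. Left out in turn, single libraries moved the promoter class difference between -44.2 and -26.6, the distal one between -19.0 and -11.3 and the difference of the classes between -25.2 and -15.3 points. The difference of the classes was -51.5 with equal list lengths, -48.6 at a q-value of at most 1e-05 (exact permutation p = 0.1 each) and -15.4 when a start had to lie inside the region (p = 0.3), and the promoter difference was -57.9 at the stricter q-value. Over the genome, lower calls made up 62.8% of all calls, 52.7% with equal list lengths, 53.7% with the block and 48.7% with both. The cause of these changes was not tested.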
